A study of Mus musculus with 16 samples.

Results

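The genes described here encode the enzymes that build cholesterol and fatty acids and the factors that set their level, followed in mouse trabecular osteoblasts (TOs). The list holds 31 genes, namely 4 regulators and sterol carriers, 7 genes of the mevalonate steps, 11 of the squalene and sterol steps and 9 of the fatty acid steps. A probe was taken as a member where its platform symbol or current symbol is on the list (Sc4mol is now Msmo1). A probe was named for 28 of the 31 genes, 37 probes in all. Of these 34 passed the detection filter and represented all 28 genes among 10438 tested. Acat2, Mvk and Fdft1 had no probe named for them and are not analysed here. The cells were Pthrp-/- TOs, which carry a global deletion of the gene for parathyroid hormone-related protein that is lethal around birth, and TOs of Pthrp+/+ littermates, grown out from bone fragments of fetal C57BL/6 mice 1 day before birth (the labels give the tibia as source and the femur as tissue). After attachment to microcarriers they were held for 6 days at 0g, simulated in a rotating vessel, or at 1g, stationary in agarose-coated plasticware, and they were treated with 10 nM PTHrP1-36 for 2 h per day or left untreated with a daily change of medium. Vessel and rotation cannot be told apart from the gravity setting. There were 2 Illumina arrays for every one of the 8 conditions, 16 in all. The sources call them duplicate experiments and name no animal of origin, and p-values here speak only of the variation among these cultures.

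Cells make cholesterol from acetyl-CoA through mevalonate, the isoprenoid farnesyl diphosphate, squalene and lanosterol, and they make fatty acids from the same acetyl-CoA through malonyl-CoA, followed by elongation and desaturation. Both sets of genes are switched on by the membrane-bound SREBP transcription factors, encoded by Srebf1 and Srebf2, which SCAP carries to the Golgi for cleavage when sterols in the endoplasmic reticulum are low and which INSIG proteins hold back when sterols are plentiful. In bone the mevalonate steps are known as the target of nitrogen-containing bisphosphonates, drugs that block farnesyl diphosphate synthase in osteoclasts.

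The median intensity of an array was 60.6 to 70.3, between 12161 and 13560 probes per array were detected, and duplicates correlated at 0.989 to 0.997 over tested probes, lowest in untreated Pthrp-/- TOs at 0g. No probe was named for Pthlh, the gene of PTHrP, so the genotype labels were not checked by the ablated gene. Osteoblast markers had a summed level (linear scale) of 17476 to 23415 in Pthrp-/- and 19909 to 27493 in Pthrp+/+ arrays, mostly Sparc (condition means 13.78 to 14.17, log2). Sp7, Col1a1, Col1a2, Bglap2 and Sparc were detected in every condition. Ibsp was undetected on every Pthrp-/- array and detected in Pthrp+/+ TOs at 1g, and Dmp1 was undetected in every condition. Condition means of Alpl were 4.87 to 5.38 in Pthrp-/- against 6.05 to 7.18 in Pthrp+/+ TOs. The 15 macrophage markers with a probe summed to 509 to 730 in Pthrp-/- arrays, where 8 to 11 of them were undetected in a condition, against 56578 to 92997 in Pthrp+/+ arrays. The 12 tested cell division genes summed to 831 to 1570 in Pthrp-/- against 5149 to 12567 in Pthrp+/+ arrays. The 9 adipocyte markers with a probe summed to 896 to 1547 in Pthrp-/- against 11788 to 19034 in Pthrp+/+ arrays, mostly Lpl, which macrophages also express. Fabp4, Plin1, Cidec and Retn were undetected in every condition. Adipoq was detected on both arrays in Pthrp+/+ TOs at 1g (means 5.75 treated and 6.87 untreated) and on none at 0g. In Pthrp-/- TOs it was detected on at most 1 array of a condition. Pparg was detected in every condition and Cebpa in every Pthrp+/+ condition. Lep had its highest means in Pthrp-/- TOs at 0g (5.35 treated and 5.50 untreated). Of 6 endothelial markers, 4 to 6 were undetected in a condition. In RNA of whole cultures, fewer cells of a type and less RNA per cell cannot be told apart. Across all tested genes the 0g effect in untreated Pthrp-/- TOs ran against that in untreated Pthrp+/+ TOs (Pearson r = -0.36, Spearman rho = -0.27 over 10438 genes, no array in common, genes not being independent replicates). Every direction given below for 0g in Pthrp-/- TOs, and every comparison of the genotypes within 1 gravity setting, therefore rests on the gravity labels of those arrays.

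Values are log2 intensities after background correction and quantile normalization, on which a difference of 1 is a doubling, and a gene is read from its brightest tested probe. A gene is called where limma's adjusted p over all 15279 tested probes is under 0.05, with no minimum fold, and n is 2 arrays per condition throughout. All 28 genes were detected on 11 or more of the 16 arrays. Fasn, the fatty acid synthase, was the least often detected, on 11 arrays, and lay between 4.84 and 5.32 on these. Levels of different genes come from different probes and are not compared.

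**Figure D1:**
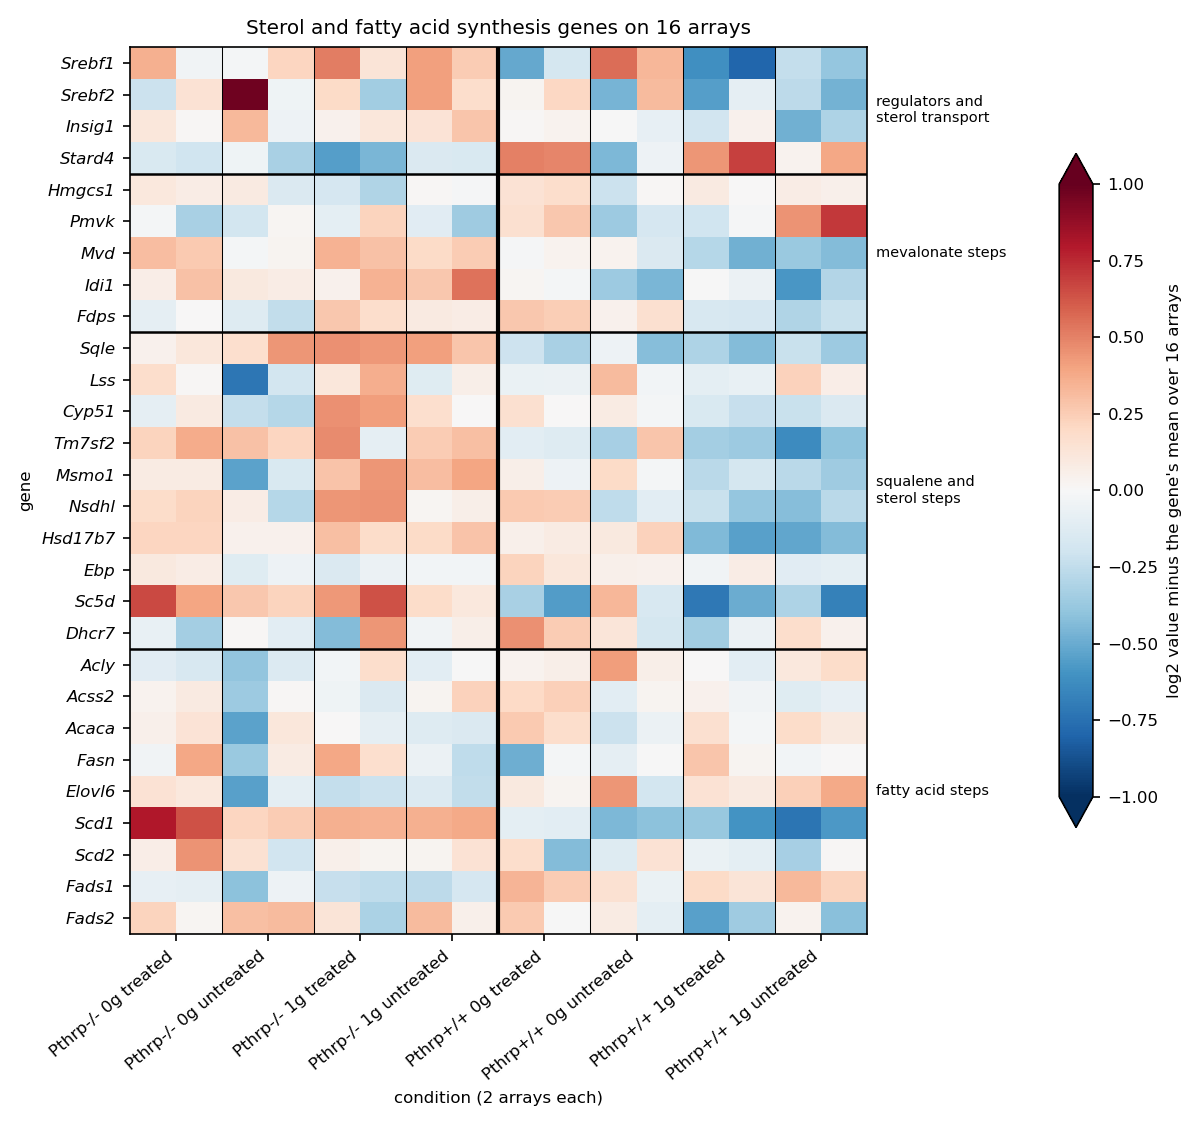
Deviation of each of the 28 measured genes from its own mean over 16 arrays (colour, log2 scale), with genes in rows ordered by role and arrays in columns, Pthrp-/- left of Pthrp+/+. Scd1 lies above its mean on all 8 Pthrp-/- arrays and below it on all 8 Pthrp+/+ arrays.

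Ablation of Pthrp came with higher levels of several genes of the sterol steps at 1g. In untreated TOs at 1g, 12 of the 28 genes were higher in Pthrp-/- than in Pthrp+/+ TOs and 3 were lower, where 30.5% of all tested genes were higher and 22.0% lower. The median log2 fold change of the 28 was 0.31, against 0.12 over all tested genes. With cyclic loess normalization, which moved the median of all genes to -0.01, it was 0.13 with 9 genes higher and 4 lower. Under that setting 2288 of 10438 tested genes were higher and 2851 lower. Of the 10 measured genes of the squalene and sterol steps 6 were higher and 0 lower, and of the 5 mevalonate genes 3 were higher and 1 lower. Of the 4 regulators and carriers 2 were higher and 0 lower, and of the 9 fatty acid genes 1 was higher and 2 were lower.

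Scd1, the desaturase that places a double bond in saturated fatty acids, had the largest rise of the 28. It stood at 9.72 and 9.74 in untreated Pthrp-/- TOs at 1g, against 8.63 and 8.78 in Pthrp+/+ TOs, a log2 fold change of 1.02 ± 0.11 (SE) with an adjusted p of 2.7e-06. Idi1, the isopentenyl diphosphate isomerase of the mevalonate steps, was at 5.60 and 5.88 in Pthrp-/- against 4.75 and 5.04 in Pthrp+/+ TOs (0.85 ± 0.14, adjusted p = 0.0002). Tm7sf2, a sterol reductase, was at 5.64 and 5.69 in Pthrp-/- against 4.76 and 4.99 in Pthrp+/+ TOs (0.79 ± 0.19, adjusted p = 0.0037). Arrays of the genotypes did not overlap for any of these genes, as for 27 of the 28 genes in this comparison, called or not. Hsd17b7, a ketoreductase of the sterol demethylation steps, was at 11.12 and 11.22 in Pthrp-/- against 10.42 and 10.50 in Pthrp+/+ TOs (0.71 ± 0.10, adjusted p = 3.9e-05). The other genes that rose were Msmo1 (the sterol methyl oxidase, 0.66 ± 0.13), Srebf1 (0.65 ± 0.17), Sqle (squalene epoxidase, 0.64 ± 0.14), Sc5d (a sterol desaturase, 0.63 ± 0.17), Mvd (mevalonate diphosphate decarboxylase, 0.63 ± 0.10), Insig1 (0.60 ± 0.13), Nsdhl (a sterol dehydrogenase, 0.39 ± 0.12) and Fdps (farnesyl diphosphate synthase, 0.35 ± 0.10).

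The genes that fell with ablation at this setting were a mevalonate gene and a pair of fatty acid genes. Pmvk, the phosphomevalonate kinase, was at 6.50 and 6.26 in Pthrp-/- against 7.07 and 7.32 in Pthrp+/+ TOs (-0.81 ± 0.16, adjusted p = 0.00068), the opposite direction to its neighbours in the pathway, Mvd and Idi1. Elovl6, which lengthens saturated fatty acids, was at 8.02 and 7.91 in Pthrp-/- against 8.40 and 8.54 in Pthrp+/+ TOs (-0.50 ± 0.18, adjusted p = 0.031). Fads1, a desaturase of polyunsaturated fatty acids, was at 12.03 and 12.12 in Pthrp-/- against 12.62 and 12.52 in Pthrp+/+ TOs (-0.49 ± 0.12, adjusted p = 0.0047). Of the 15 calls, 9 held under every alternative and with any 1 array left out (Scd1, Idi1, Hsd17b7, Msmo1, Sqle, Mvd, Insig1, Pmvk and Fads1). Here and below such calls were followed in the brightest probe, and other probes of a gene were not part of the check. Elovl6 was lost whichever of the 4 arrays was left out, and Nsdhl with any of 3 left out. Tm7sf2 was not called in the authors' normalized values, and neither was Sc5d. Srebf1, Nsdhl and Sc5d were not called with cyclic loess. Srebf1 was not called without Pthrp-/- replicate 1 or Pthrp+/+ replicate 2, Sc5d without Pthrp+/+ replicate 2 and Fdps without Pthrp+/+ replicate 1. Beside these changes all 15 macrophage markers were lower in Pthrp-/- TOs (median log2 fold change -6.09), as were 11 of 12 cell division genes (median -3.75), 4 of 5 tested adipocyte markers (median -0.74) and 7 of 9 tested osteoblast markers (median -0.60). Their part in the result was not tested.

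**Figure D2:**
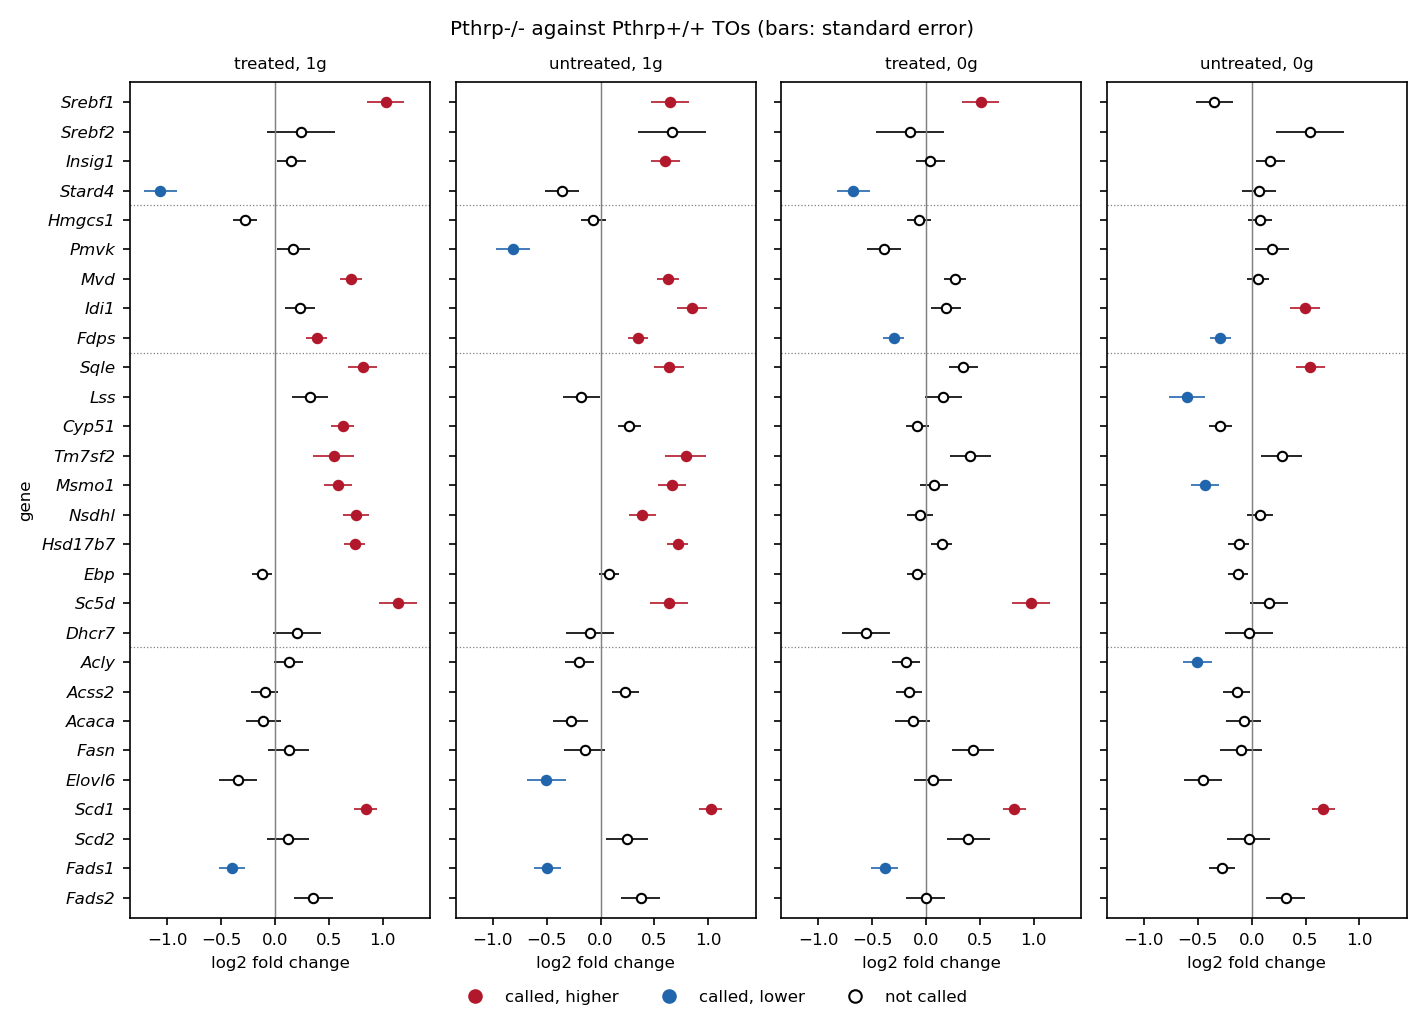
Log2 fold change of Pthrp-/- over Pthrp+/+ TOs for the 28 genes in 4 panels (treated 1g, untreated 1g, treated 0g, untreated 0g), filled red where called higher, filled blue where called lower and open where not called, with the SE as bars. Scd1 is called higher in all 4 panels, while the sterol-step genes are called higher mostly in the 1g panels.

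In treated TOs at 1g, 11 genes were higher in Pthrp-/- than in Pthrp+/+ TOs and 2 lower. Of all tested genes 28.4% were higher and 22.4% lower. With cyclic loess 10 were higher and 4 lower, where 2226 of 10438 tested genes were higher and 2845 lower. Of the 10 squalene and sterol genes 7 were higher and 0 lower, with a median of 0.61. Sc5d was at 6.06 and 6.26 in treated Pthrp-/- TOs against 4.91 and 5.13 in treated Pthrp+/+ TOs, a difference of 1.14 ± 0.17 (adjusted p = 0.00011). Srebf1, which encodes the SREBP of fatty acid synthesis, was at 6.69 and 6.30 in Pthrp-/- against 5.56 and 5.38 in Pthrp+/+ TOs (1.03 ± 0.17, adjusted p = 0.00027). Scd1 was at 9.72 and 9.71 in Pthrp-/- against 8.98 and 8.76 in Pthrp+/+ TOs (0.84 ± 0.11). Sqle, a rate-controlling oxygenase of the sterol branch, was at 10.96 and 10.93 in Pthrp-/- against 10.19 and 10.07 in Pthrp+/+ TOs (0.81 ± 0.14, adjusted p = 0.00022). Cyp51, the lanosterol demethylase, was also called at this setting (0.63 ± 0.11, adjusted p = 0.00026). Nsdhl (0.75 ± 0.12), Hsd17b7 (0.74 ± 0.10), Mvd (0.70 ± 0.10), Msmo1 (0.59 ± 0.13), Tm7sf2 (0.54 ± 0.19) and Fdps (0.39 ± 0.10) were higher too. Stard4, a cytosolic carrier of cholesterol, fell to 7.13 and 7.22 in treated Pthrp-/- TOs, against 8.12 and 8.36 in treated Pthrp+/+ TOs (-1.06 ± 0.15, adjusted p = 6.6e-05). Fads1 fell to 12.07 and 12.04 in treated Pthrp-/- TOs, against 12.48 and 12.42 in treated Pthrp+/+ TOs (-0.40 ± 0.12, adjusted p = 0.017). Of the 13 calls, 11 held under every alternative and with any 1 array left out. The exceptions were Tm7sf2 and Fads1, each of which was lost with any of 3 arrays left out. Tm7sf2 was also not called in the authors' normalized values, with cyclic loess or without a detection filter. All 15 macrophage markers and all 12 cell division genes were again lower in Pthrp-/- TOs, with medians of -5.26 and -3.71, as were 3 of 5 adipocyte and 6 of 9 osteoblast markers, and their part was not tested.

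At 0g the genotypes differed in fewer of these genes than at 1g, and those that did were split between the directions. The same held for all tested genes, of which 30.5% were higher and 22.0% lower in untreated TOs at 1g. In untreated TOs 3 genes were higher and 4 lower in Pthrp-/- TOs, where 17.3% of all tested genes were higher and 15.0% lower. With cyclic loess 3 were higher and 6 lower, where 1440 of 10438 tested genes were higher and 1765 lower. In treated TOs 3 were higher and 3 lower, where 18.6% were higher and 15.2% lower. With cyclic loess 2 were higher and 5 lower there, where 1371 of 10438 were higher and 1899 lower. Scd1 was at 9.57 and 9.62 in untreated Pthrp-/- TOs at 0g against 8.91 and 8.95 in untreated Pthrp+/+ TOs (0.66 ± 0.11, adjusted p = 0.00033). In treated cells it was at 10.16 and 10.00 in treated Pthrp-/- against 9.26 and 9.26 in treated Pthrp+/+ TOs (0.82 ± 0.11, adjusted p = 4.3e-05). It was the one gene called in the same direction in all 4 settings, in each under every alternative and with any 1 array left out. Among untreated TOs, Sqle was also higher, at 10.67 and 10.94 in Pthrp-/- against 10.44 and 10.07 in Pthrp+/+ TOs (0.54 ± 0.14, adjusted p = 0.0081). Idi1 was higher as well, at 5.43 and 5.41 in Pthrp-/- against 4.97 and 4.88 in Pthrp+/+ TOs (0.49 ± 0.14, adjusted p = 0.017). Lss, the lanosterol synthase, was lower, at 6.66 and 7.20 in Pthrp-/- against 7.71 and 7.36 in Pthrp+/+ TOs (-0.60 ± 0.17, adjusted p = 0.017). Acly, which makes cytosolic acetyl-CoA from citrate, was at 11.54 and 11.80 in Pthrp-/- against 12.35 and 12.00 in Pthrp+/+ TOs (-0.50 ± 0.13, adjusted p = 0.011). Msmo1 was at 9.68 and 10.06 in Pthrp-/- against 10.41 and 10.20 in Pthrp+/+ TOs (-0.43 ± 0.13, adjusted p = 0.024), the reverse of its direction at 1g. Fdps was also lower, at 10.96 and 10.84 in Pthrp-/- against 11.13 and 11.25 in Pthrp+/+ TOs (-0.29 ± 0.10, adjusted p = 0.036). In both genotypes replicate 1 was the more extreme array for Lss, Acly and Msmo1, and none of the 3 was called without replicate 1 of either genotype. Sqle and Fdps were not called without replicate 2 of either genotype, nor Idi1 without Pthrp-/- replicate 1 or Pthrp+/+ replicate 2. When only these 4 arrays were fitted Scd1 alone was called, and Idi1 was also lost in the authors' normalized values and without background correction. Without Pthrp-/- replicate 1 the count of called genes was 3, and without Pthrp+/+ replicate 1 it was 4.

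Among treated TOs at 0g, Sc5d was at 6.29 and 6.02 in Pthrp-/- against 5.30 and 5.06 in Pthrp+/+ TOs (0.97 ± 0.17, adjusted p = 0.00073), and it was the largest difference there. Srebf1 was at 6.53 and 6.14 in Pthrp-/- against 5.66 and 5.99 in Pthrp+/+ TOs (0.51 ± 0.17, adjusted p = 0.041). Stard4 was at 7.53 and 7.48 in Pthrp-/- against 8.18 and 8.17 in Pthrp+/+ TOs (-0.67 ± 0.15, adjusted p = 0.0042). Fads1 was at 12.21 and 12.20 in Pthrp-/- against 12.64 and 12.55 in Pthrp+/+ TOs (-0.39 ± 0.12, adjusted p = 0.029). Fdps, of the mevalonate steps, was at 11.00 and 11.09 in Pthrp-/- against 11.36 and 11.34 in Pthrp+/+ TOs (-0.30 ± 0.10, adjusted p = 0.029). Sc5d, Stard4 and Scd1 held under every alternative and with any 1 array left out, while the calls of Fads1 and Fdps were each lost whichever of the 4 arrays was left out. Srebf1 was not called without replicate 1 of either genotype, nor under 4 of 8 other settings (the authors' normalized values, cyclic loess, no detection filter and only the groups compared). The count was 3 without treated Pthrp-/- replicate 1. At 0g, 13 of the 15 macrophage markers were lower in Pthrp-/- TOs in each treatment, with 12 of 12 cell division genes lower in treated and 11 of 12 in untreated TOs. Adipocyte markers were split, with 2 of 5 higher and 3 lower in treated TOs and 1 higher and 2 lower in untreated TOs, and 5 of 9 osteoblast markers were lower in treated and 2 of 9 in untreated TOs.

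Averaged over the 4 settings, a comparison that does not rest on the gravity labels, 13 genes were higher and 5 lower in Pthrp-/- TOs, where 39.7% of all tested genes were higher and 26.1% lower. This split moved to 9 higher and 10 lower with cyclic loess normalization, under which the median of all genes was -0.0043. Of 10438 tested genes 3087 were higher and 3402 lower with cyclic loess. Of the 18 genes, 12 were called under every alternative and with any 1 array left out, 9 of them higher in Pthrp-/- TOs (Scd1 0.84 ± 0.05, Sc5d 0.73 ± 0.09, Sqle 0.58 ± 0.07, Tm7sf2 0.51 ± 0.10, Srebf1 0.46 ± 0.09, Idi1 0.44 ± 0.07, Mvd 0.41 ± 0.05, Hsd17b7 0.37 ± 0.05 and Msmo1 0.22 ± 0.07) and 3 lower (Stard4 -0.51 ± 0.08, Fads1 -0.39 ± 0.06 and Elovl6 -0.31 ± 0.09). Scd1 spanned 9.57 to 10.16 on the 8 Pthrp-/- arrays, against 8.63 to 9.26 on the 8 Pthrp+/+ arrays, without overlap. In this comparison 15 of 15 macrophage markers, 12 of 12 cell division genes, 4 of 5 adipocyte markers and 7 of 9 osteoblast markers were lower in Pthrp-/- TOs, and 4 of 5 chondrocyte markers were higher. Their part was not tested.

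**Figure D3:**
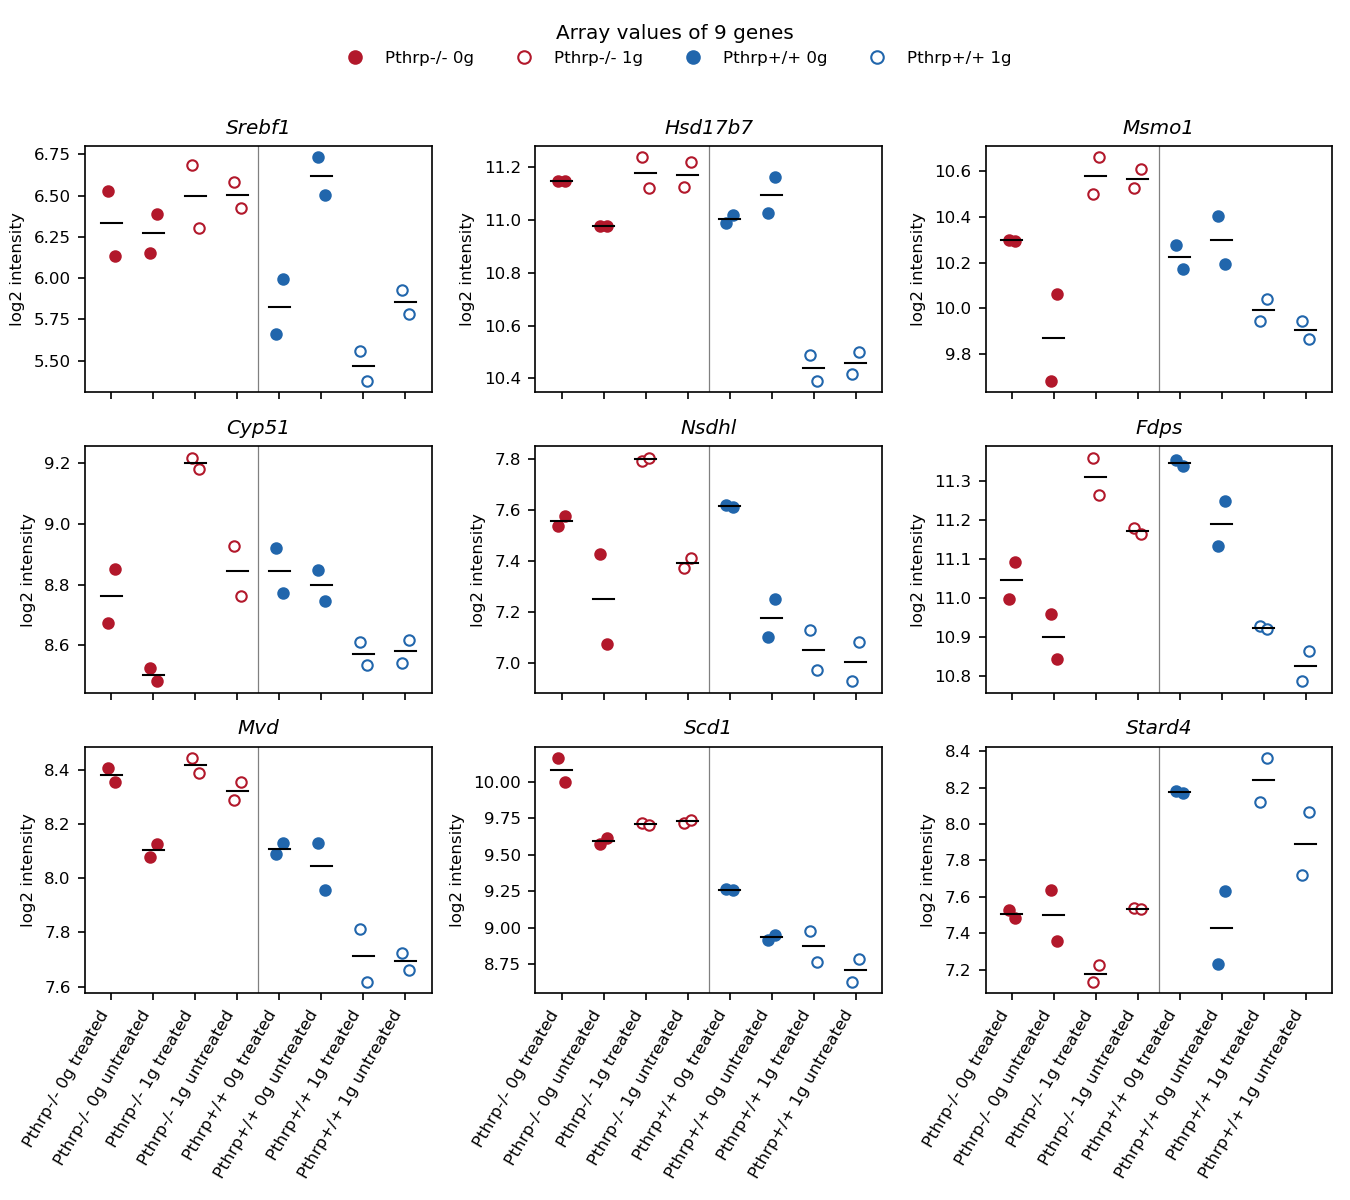
Log2 values on each of the 16 arrays for 9 genes, 1 panel per gene, with Pthrp-/- conditions left of Pthrp+/+ conditions, points for arrays and lines for condition means. The Pthrp-/- points of Hsd17b7 lie between 10.98 and 11.24 in all conditions, while the Pthrp+/+ points lie between 10.99 and 11.16 at 0g and between 10.39 and 10.50 at 1g.

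In untreated Pthrp+/+ TOs, 0g came with higher levels of 3 of 10 genes of the squalene and sterol steps. The mevalonate genes were split, with 2 of 5 higher and 1 lower. Without treatment 6 genes were higher at 0g than at 1g and 2 lower, where 13.0% of all tested genes were higher and 13.4% lower. The median of the 28 was 0.16, against 0.04 over all genes. With cyclic loess 4 were higher and 2 lower, where 1026 of 10438 tested genes were higher and 1651 lower. Srebf1 was at 6.73 and 6.50 at 0g, against 5.93 and 5.78 at 1g (0.76 ± 0.17, adjusted p = 0.0059). Hsd17b7 was at 11.03 and 11.16 at 0g against 10.42 and 10.50 at 1g (0.64 ± 0.10, adjusted p = 0.00031). Sc5d was at 5.96 and 5.47 at 0g against 5.32 and 4.95 at 1g (0.58 ± 0.17, adjusted p = 0.027). For each of these the lower 0g array still lay above the higher 1g array. With 2 arrays per side this also held for genes that were not called. Msmo1 was at 10.41 and 10.20 at 0g against 9.95 and 9.87 at 1g (0.40 ± 0.13, adjusted p = 0.041), and Fdps (0.37 ± 0.10) and Mvd (0.35 ± 0.10) rose as well. Pmvk fell to 6.25 and 6.44 at 0g, against 7.07 and 7.32 at 1g (-0.85 ± 0.16, adjusted p = 0.0012), the largest change of the 28. Stard4 fell to 7.23 and 7.63 at 0g, against 7.72 and 8.07 at 1g (-0.46 ± 0.15, adjusted p = 0.044). Hsd17b7 and Pmvk were called with any 1 array left out, and each of the other 6 was lost without at least 1 array. Srebf1, Sc5d and Stard4 were not called without 0g replicate 1 or without 1g replicate 2. Mvd and Msmo1 were not called with cyclic loess, nor Sc5d and Stard4 in the authors' normalized values. The number of called genes was 5 without 0g replicate 1, 5 without 1g replicate 1, 3 without 1g replicate 2 and 3 when only these 4 arrays were fitted. Of the macrophage markers 14 of 15 and of the cell division genes 11 of 12 were lower at 0g in the same arrays (medians -0.995 and -1.08), as were 3 of 5 adipocyte markers (median -0.63) and 3 of 9 osteoblast markers (median -0.54). Their part was not tested.

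With treatment, 5 genes were higher at 0g than at 1g in Pthrp+/+ TOs and 0 lower. Of all tested genes 3.40% were higher and 4.47% lower. With cyclic loess 3 were higher and 0 lower, where 315 of 10438 tested genes were higher and 525 lower. Hsd17b7 was at 10.99 and 11.02 at 0g against 10.49 and 10.39 at 1g (0.56 ± 0.10, adjusted p = 0.0026). Nsdhl was at 7.62 and 7.61 at 0g against 7.13 and 6.97 at 1g (0.56 ± 0.12, adjusted p = 0.012). Fdps was at 11.36 and 11.34 at 0g against 10.93 and 10.92 at 1g (0.42 ± 0.10, adjusted p = 0.016). Replicates of these genes lay closer to each other than to any array of the other gravity setting. Arrays at 0g and 1g also did not overlap for genes that were not called. Mvd was at 8.09 and 8.13 at 0g against 7.81 and 7.62 at 1g (0.39 ± 0.10, adjusted p = 0.033), and Scd1 rose by 0.39 ± 0.11 (adjusted p = 0.041). The Scd1 call was lost with the replicate number as a block, with cyclic loess, when only these 4 arrays were fitted and whichever of them was left out, and that of Mvd likewise except with the block. Hsd17b7, Fdps and Mvd, of the sterol and mevalonate steps, were thus called at 0g in untreated and in treated Pthrp+/+ TOs. These comparisons share no array but are not independent. They come from 1 fit with a common estimate of the spread. The paper also describes an untreated and a treated 0g vessel as turned together on 1 axis. Hsd17b7 alone was called with any 1 array left out, the number of called genes being 1 without 0g replicate 1, 1 without 0g replicate 2, 2 without 1g replicate 1 and 1 without 1g replicate 2. In treated TOs 6 of 15 macrophage markers and 1 of 12 cell division genes were lower at 0g.

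In Pthrp-/- TOs few of these genes differed between 0g and 1g, as did few of all tested genes. Without treatment 0 were higher and 1 was lower, where 5.26% of all tested genes were higher and 4.05% lower. That gene was Msmo1, at 9.68 and 10.06 at 0g against 10.53 and 10.61 at 1g (-0.70 ± 0.13, adjusted p = 0.0048), which was called with any 1 array left out but not when only these 4 arrays were fitted. Without 0g replicate 2, which leaves replicate 1 as the lone array of its condition, 4 genes were called. With treatment 0 were higher and 1 was lower, where 5.20% were higher and 3.57% lower. Cyp51 was at 8.67 and 8.85 at 0g against 9.22 and 9.18 at 1g (-0.44 ± 0.11, adjusted p = 0.022), a call lost without 0g replicate 1, without either 1g array and when only these 4 arrays were fitted. Among cell division genes 6 of 12 were higher at 0g in untreated and 7 of 12 in treated Pthrp-/- TOs.

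The 0g effect differed between the genotypes for 7 genes. The difference was tested directly as the 0g effect in Pthrp-/- minus that in Pthrp+/+ TOs, averaged over both treatments. It was positive for 0 of the 28 genes and negative for 7, where 15.5% of all tested genes were positive and 15.8% negative. With cyclic loess 1 was positive and 7 negative, where 1941 of 10438 tested genes were positive and 1324 negative. The median over the 28 was -0.26, against -0.02 over all tested genes. The 7 were Msmo1 (-0.80 ± 0.13, adjusted p = 0.00041), Srebf1 (-0.76 ± 0.17, adjusted p = 0.0053), Hsd17b7 (-0.71 ± 0.10, adjusted p = 0.0001), Fdps (-0.66 ± 0.10, adjusted p = 0.00017), Cyp51 (-0.63 ± 0.11, adjusted p = 0.00055), Nsdhl (-0.56 ± 0.12, adjusted p = 0.0037) and Mvd (-0.50 ± 0.10, adjusted p = 0.0025). All 7 were called under every alternative and with any 1 of the 16 arrays left out. Without untreated Pthrp-/- replicate 2 at 0g the count was 11. Of these genes 4 act in the squalene and sterol steps, 2 in the mevalonate steps and 1 is a regulator, and 0 of the 9 fatty acid genes were called. Over the same arrays 12 of 15 macrophage markers and 9 of 12 cell division genes had a positive difference, as had 2 of 5 adipocyte and 4 of 9 osteoblast markers. Their part was not tested.

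The data behind these differences can be read from Hsd17b7 and Fdps. Hsd17b7 in Pthrp-/- TOs was at 11.15 and 11.15 (treated) and 10.98 and 10.98 (untreated) at 0g, against 11.24 and 11.12 (treated) and 11.12 and 11.22 (untreated) at 1g, so that all 8 Pthrp-/- arrays stood near the level that Pthrp+/+ TOs had at 0g and above the one they had at 1g. Fdps in Pthrp-/- TOs was at 11.00 and 11.09 (treated) and 10.96 and 10.84 (untreated) at 0g, against 11.36 and 11.26 (treated) and 11.18 and 11.16 (untreated) at 1g. Fdps in Pthrp+/+ TOs ran the other way, at 11.36 and 11.34 (treated) and 11.13 and 11.25 (untreated) at 0g, against 10.93 and 10.92 (treated) and 10.79 and 10.86 (untreated) at 1g. Cyp51 crossed in the same manner, at 8.67 and 8.85 (treated) and 8.53 and 8.48 (untreated) at 0g against 9.22 and 9.18 (treated) and 8.93 and 8.76 (untreated) at 1g in Pthrp-/- TOs. In Pthrp+/+ TOs Cyp51 was at 8.92 and 8.77 (treated) and 8.85 and 8.75 (untreated) at 0g against 8.61 and 8.54 (treated) and 8.54 and 8.62 (untreated) at 1g.

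**Figure D4:**
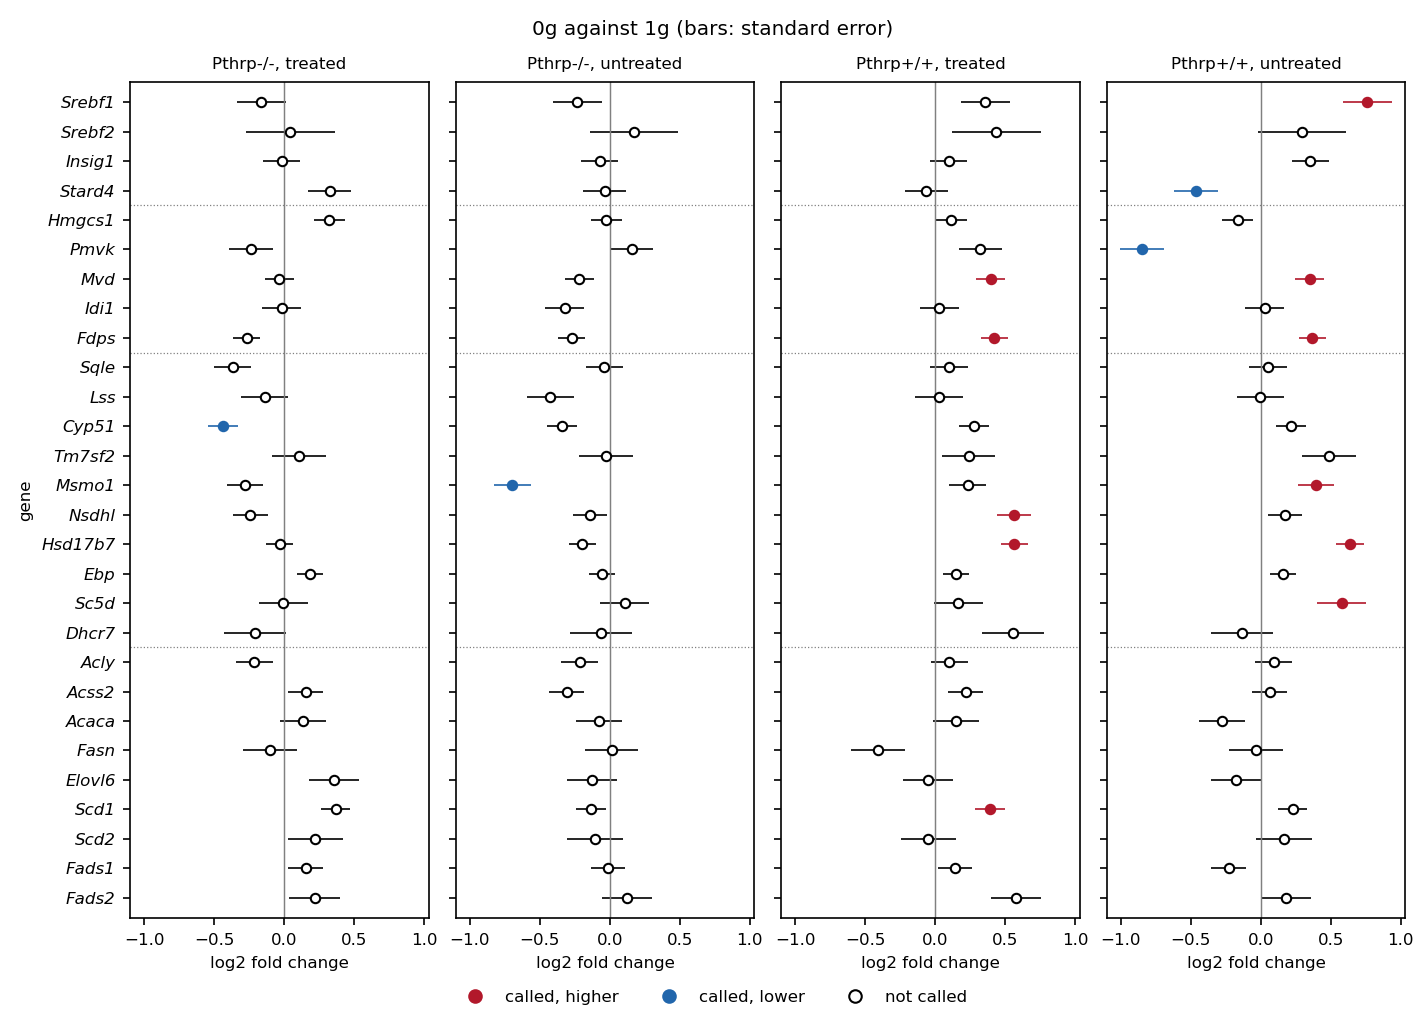
Log2 fold change of 0g over 1g for the 28 genes in 4 panels (treated and untreated Pthrp-/-, treated and untreated Pthrp+/+), filled red where called higher, filled blue where called lower and open where not called, with the SE as bars. Hsd17b7, Fdps and Mvd are called higher in both Pthrp+/+ panels and not called in either Pthrp-/- panel.

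Promoter sequence is shown for 4 of the 7 genes whose 0g effect differed between the genotypes, those with the most CCAAT boxes (2 or 3). Of the others, Cyp51 had 1 CCAAT box, Srebf1 at most 1 per window, and Fdps no window in the sequence table. Hmgcs1, the HMG-CoA synthase, is shown because of the 24 members with a window it alone matched the sterol regulatory element. Each sequence is the 250 bases before the start site from RefSeq on GRCm38.p6, printed 5′ to 3′ on the strand of the gene. Capitals mark CCAAT boxes (CCAAT, or ATTGG on the other strand) and, in Hmgcs1, also the sterol regulatory element. They lie at chr1:169969206-169969455 on the minus strand (Hsd17b7), chr8:64733579-64733828 on the minus strand (Msmo1), chr8:122443423-122443672 on the minus strand (Mvd), chrX:72918271-72918520 on the plus strand (Nsdhl) and chr13:119690101-119690350 on the plus strand (Hmgcs1).
Hsd17b7: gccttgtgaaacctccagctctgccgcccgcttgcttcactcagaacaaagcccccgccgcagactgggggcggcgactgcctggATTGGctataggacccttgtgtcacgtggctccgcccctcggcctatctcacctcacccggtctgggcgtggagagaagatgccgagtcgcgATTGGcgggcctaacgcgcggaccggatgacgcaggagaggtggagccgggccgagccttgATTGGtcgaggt
Msmo1: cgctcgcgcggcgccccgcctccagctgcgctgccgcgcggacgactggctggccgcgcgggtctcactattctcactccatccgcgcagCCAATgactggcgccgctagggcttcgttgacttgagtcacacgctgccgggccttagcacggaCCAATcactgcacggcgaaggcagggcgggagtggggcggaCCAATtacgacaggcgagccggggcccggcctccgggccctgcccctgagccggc
Mvd: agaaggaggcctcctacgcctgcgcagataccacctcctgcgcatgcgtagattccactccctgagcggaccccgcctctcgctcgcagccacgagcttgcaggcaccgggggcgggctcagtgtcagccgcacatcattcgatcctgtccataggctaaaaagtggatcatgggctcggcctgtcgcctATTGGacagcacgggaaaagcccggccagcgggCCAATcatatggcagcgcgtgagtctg
Nsdhl: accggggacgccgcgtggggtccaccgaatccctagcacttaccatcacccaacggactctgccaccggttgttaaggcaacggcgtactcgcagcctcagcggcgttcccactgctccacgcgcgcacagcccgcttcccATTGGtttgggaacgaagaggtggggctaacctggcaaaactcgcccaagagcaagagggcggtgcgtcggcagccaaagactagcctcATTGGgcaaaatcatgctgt
Hmgcs1: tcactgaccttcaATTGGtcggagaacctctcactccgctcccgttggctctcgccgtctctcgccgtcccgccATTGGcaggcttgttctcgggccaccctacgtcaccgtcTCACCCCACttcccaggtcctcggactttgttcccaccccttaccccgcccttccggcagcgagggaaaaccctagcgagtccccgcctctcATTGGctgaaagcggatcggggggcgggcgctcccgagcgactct

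The search covered 29 windows of 24 members on both strands, beside 32851 windows of the same length. The CCAAT box, which binds the factor NF-Y, was found in 20 of 29 windows (69.0%, against 33.8% of all windows). The GC box GGGCGG, bound by Sp1, was found in 22 (75.9%, against 32.7%), the E-box CACGTG in 4 (13.8%, against 6.02%), and the sterol regulatory element TCACNCCAC in 1 (3.45%, against 1.05%), in Hmgcs1 from -137 to -129. A match is a description of the letters. Hmgcs1 itself was called in none of the 4 comparisons of 0g with 1g and in none of the 5 of Pthrp-/- with Pthrp+/+ TOs, with log2 values of 12.29 to 12.69 on the 8 Pthrp-/- arrays and 12.37 to 12.76 on the 8 Pthrp+/+ arrays.

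Srebf1, Srebf2 and Insig1 did not move together in every comparison. In untreated TOs at 1g the means of all were higher in Pthrp-/- than in Pthrp+/+ TOs. They were 6.50 against 5.86 (Srebf1), 7.75 against 7.08 (Srebf2, not called) and 7.89 against 7.29 (Insig1). Means of all were also higher at 0g than at 1g in untreated Pthrp+/+ TOs, where Srebf1 alone of them was called. In treated TOs at 0g the Srebf2 mean was lower in Pthrp-/- TOs (7.42 against 7.57), with overlapping arrays. Srebf1 in Pthrp-/- TOs was at 6.53 and 6.14 (treated) and 6.15 and 6.39 (untreated) at 0g, against 6.69 and 6.30 (treated) and 6.58 and 6.42 (untreated) at 1g. In Pthrp+/+ TOs it lay above the lowest of these values, 6.14, only in untreated cells at 0g. Srebf2, which encodes the SREBP most tied to cholesterol synthesis, was at 7.24 and 7.60 (treated) and 8.43 and 7.41 (untreated) at 0g and at 7.65 and 7.10 (treated) and 7.86 and 7.63 (untreated) at 1g in Pthrp-/- TOs. In Pthrp+/+ TOs it was at 7.48 and 7.66 (treated) and 6.99 and 7.77 (untreated) at 0g and at 6.90 and 7.36 (treated) and 7.19 and 6.98 (untreated) at 1g. Its replicates lay furthest apart in untreated Pthrp-/- TOs at 0g, its SE was 0.32, the largest of the 28, and it was called in none of the 16 contrasts. Insig1, which is both a brake on SREBP and one of its targets, was at 7.80 and 7.69 (treated) and 8.01 and 7.63 (untreated) at 0g and at 7.73 and 7.80 (treated) and 7.82 and 7.96 (untreated) at 1g in Pthrp-/- TOs. In Pthrp+/+ TOs it was at 7.70 and 7.72 (treated) and 7.68 and 7.60 (untreated) at 0g and at 7.49 and 7.73 (treated) and 7.21 and 7.37 (untreated) at 1g. Its untreated Pthrp+/+ arrays at 1g were the lowest of all 16. Probes of Insig1 disagreed, since for 0g in untreated Pthrp-/- TOs the brightest gave -0.07 and another gave -0.77 ± 0.15 (adjusted p = 0.0058).

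Treatment with PTHrP1-36 moved few of these genes, as it moved few of all tested genes. In Pthrp+/+ TOs at 0g 2 were higher in treated than in untreated cells and 1 was lower, where 4.98% of all tested genes were higher and 3.05% lower. Stard4 was at 8.18 and 8.17 in treated against 7.23 and 7.63 in untreated TOs (0.75 ± 0.15, adjusted p = 0.01). Nsdhl was at 7.62 and 7.61 in treated against 7.10 and 7.25 in untreated TOs (0.44 ± 0.12, adjusted p = 0.046). Srebf1 was at 5.66 and 5.99 in treated against 6.73 and 6.50 in untreated TOs (-0.79 ± 0.17, adjusted p = 0.015). None of the 3 was called without untreated replicate 1 or without treated replicate 1, 1 gene was called without treated replicate 2, and 0 were called when only these 4 arrays were fitted. With the replicate number as a block 2 were called and Nsdhl was not. In the same comparison 10 of 12 cell division genes and 8 of 15 macrophage markers were higher in treated TOs, and their part was not tested.

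In Pthrp-/- TOs at 0g 1 gene was called, where 1.11% of all tested genes were higher and 1.03% lower. Scd1 was at 10.16 and 10.00 in treated against 9.57 and 9.62 in untreated TOs (0.48 ± 0.11, adjusted p = 0.037). The call was lost without untreated replicate 1, without either treated array and when only these 4 arrays were fitted, while 5 genes were called without untreated replicate 2. At 1g limma called 0 genes in Pthrp-/- TOs, where 1.68% of all tested genes were higher and 1.57% lower, and 0 in Pthrp+/+ TOs, where 0.192% were higher and 0.527% lower. At an unadjusted p under 0.05, 4 of the 28 were higher and 1 lower in treated Pthrp-/- TOs at 1g. Of all 10438 tested genes 835 were higher and 939 lower there at that threshold. In treated Pthrp+/+ TOs at 1g 3 of the 28 were higher and 2 lower, against 515 higher and 606 lower of all tested genes. The authors' normalized values gave 1 call in Pthrp-/- TOs, and 1 was made in Pthrp+/+ TOs without background correction.

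Differences of the treatment effect were called for 1 gene by gravity setting (1 positive and 0 negative, where 2.28% of all tested genes were positive and 0.891% negative) and 1 gene by genotype (0 positive and 1 negative, where 1.14% were positive and 1.36% negative). In Pthrp+/+ TOs Pmvk responded differently at 0g and at 1g, at 6.77 and 6.89 in treated against 6.25 and 6.44 in untreated TOs at 0g and at 6.42 and 6.60 in treated against 7.07 and 7.32 in untreated TOs at 1g (difference 1.17 ± 0.22, adjusted p = 0.013). This call was lost without untreated replicate 1 or treated replicate 2 at 0g, and without treated replicate 1 or untreated replicate 2 at 1g. Stard4 responded differently in the genotypes (Pthrp-/- minus Pthrp+/+, averaged over both gravity settings, -0.72 ± 0.15, adjusted p = 0.034), a call lost in 13 of the 16 runs that leave out 1 array. In Pthrp-/- TOs Stard4 was at 7.53 and 7.48 in treated against 7.64 and 7.36 in untreated cells at 0g, and at 7.13 and 7.22 in treated against 7.54 and 7.53 in untreated cells at 1g.

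**Figure D5:**
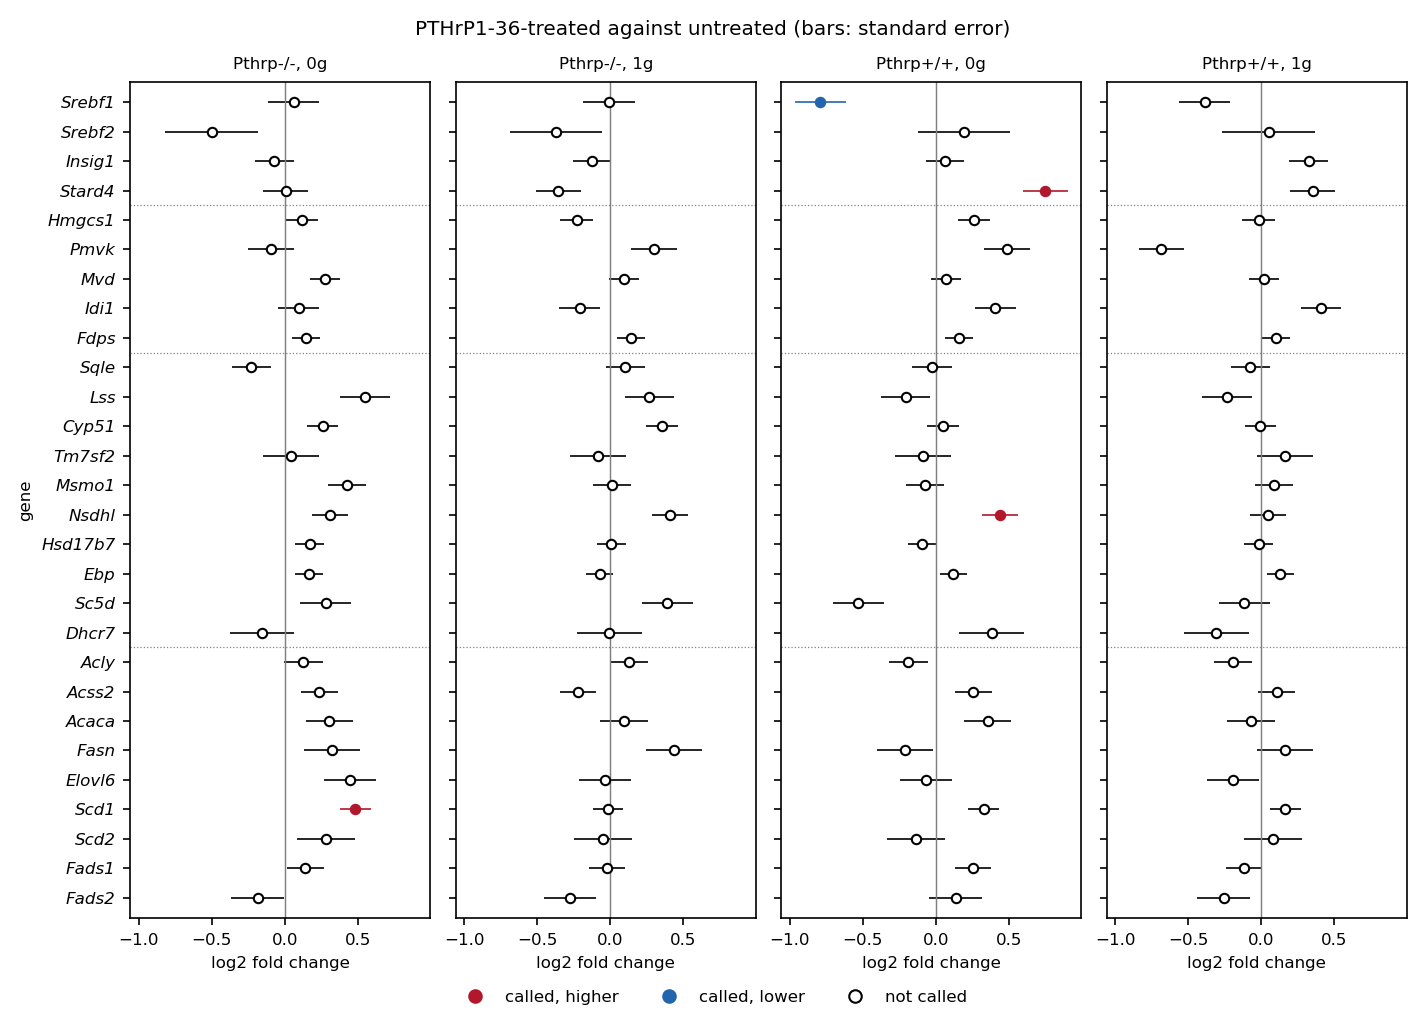
Log2 fold change of treated over untreated TOs for the 28 genes in 4 panels (Pthrp-/- at 0g and 1g, Pthrp+/+ at 0g and 1g), filled red where called higher, filled blue where called lower and open where not called, with the SE as bars. Filled points are limited to Scd1 in Pthrp-/- TOs at 0g and to Stard4, Nsdhl and Srebf1 in Pthrp+/+ TOs at 0g.

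Some of the 28 genes were called in none of the 8 comparisons of ablation or gravity within a setting. They were Srebf2, Hmgcs1, Ebp (the sterol isomerase), Dhcr7 (the reductase of the last step to cholesterol), Acss2 (which makes acetyl-CoA from acetate), Acaca (acetyl-CoA carboxylase), Fasn, Scd2 and Fads2. Dhcr7, Fasn and Fads2 were dim, at or below 5.85 on every array. So were Idi1 (4.75 to 5.88) and Tm7sf2 (4.76 to 5.86), which were called with ablation. Acaca lay between 9.45 and 10.24 and Ebp between 9.21 and 9.58 over the 16 arrays. The SE of a difference between conditions was 0.09 to 0.32 over the 28 genes, so that small changes could not be told from the spread between duplicates.

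Neighbouring pathways were read from 4 further lists. In untreated TOs at 1g, where 30.5% of all tested genes were higher in Pthrp-/- TOs and 22.0% lower, 7 of 13 genes of fatty acid oxidation were higher and 1 was lower (median 0.42), led by Ppargc1a, the coactivator of mitochondrial genes (2.11), Eci1 (1.23) and Decr1 (1.19), with Acadm at -0.99. Of 13 other genes of fatty acid synthesis and activation 5 were higher and 1 lower, with Me1, the malic enzyme that supplies NADPH, at 1.93, Lpin1 at 1.53, Fads3 at 0.92 and Slc25a1, the citrate carrier, at 0.55. Of 11 genes of sterol efflux and trafficking 2 were higher and 5 lower. Apoe, which macrophages express strongly, was at -3.99 and Ch25h at -1.96, while Osbpl3 was at 1.60 and Cyp27a1 at 1.01. Of 7 other genes of sterol synthesis 2 were higher and 2 lower, among them Scap at 0.91, Dhdds at 0.72, Lbr at -0.80 and Srd5a3 at -0.42. For 0g in untreated Pthrp+/+ TOs, where 13.0% of all tested genes were higher and 13.4% lower, the same lists had 4 higher and 1 lower (oxidation), 3 higher and 0 lower (other fatty acid genes, with Lpin1 at 0.75, Fads3 at 0.67 and Me1 at 0.56), 3 higher and 2 lower (efflux) and 0 higher and 1 lower (other sterol genes, Lbr at -0.77). The 0g effect was more negative in Pthrp-/- than in Pthrp+/+ TOs for 5 of 13 other fatty acid genes and more positive for 0, against 15.8% and 15.5% of all tested genes, with Me1 at -0.84, Hsd17b12 at -0.70, Fads3 at -0.49 and Slc25a1 at -0.46.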

How the data were processed

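RNA of TOs was measured in 8 conditions on the Mouse Ref-8 v2.0 BeadChip, 2 arrays per condition. The authors deposited intensities summarised over beads, linear and not yet normalized, a detection p-value beside each intensity, and normalized values on a log2 scale, which they made with lumi in FlexArray and tested by the random variance method of Wright and Simon. Intensities were background-corrected from the detection p (neqc of limma 3.58.1 in R 4.3.3 with an offset of 16), then quantile-normalized, and log2 values were taken. This pulls dim probes towards the offset and understates their folds. Probes were named through the platform annotation with symbols updated by gene number, and 15279 of 25697 probes, detected at p under 0.05 on at least 2 arrays, were tested. A single fit of 8 condition means over 16 arrays (lmFit and eBayes, two-sided moderated tests, 8 residual and 4.98 prior degrees of freedom) gave all contrasts, with Benjamini-Hochberg adjustment over all tested probes. The number of arrays limits the precision.

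Arrays with the same replicate number did not deviate together (correlations of -0.30 to 0.22 over 28 pairs), so the fit is unpaired. All members are accounted for, Srebf1, Srebf2 and Insig1 were given on every array, and in each comparison up to 4 called members with the largest rise and up to 4 with the largest fall, and up to 4 genes of a companion list; values of Fdps, Cyp51, Hsd17b7, Acaca and Ebp beyond this rule were chosen after they were seen. Members, lists and alternatives were chosen with earlier results of these data known. Alternatives were cyclic loess, no background correction, the authors' normalized values, no filter, a filter of 8 arrays, only the groups compared, a replicate block, Wright and Simon's model, any called probe of a gene, and leaving out each array. Any called probe was applied to counts of genes only, not to the check of single calls. The scripts were tested on simulated data with known changes. Figures were drawn with matplotlib 3.10.9.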

Additional observations from a re-analysis of the deposited data

Results flagged for a closer look

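The 0g effect differed between the genotypes by a test of the difference itself for 7 of the 28 genes (Pthrp-/- minus Pthrp+/+ TOs, averaged over treated and untreated cells). All 7 were negative, where 15.5% of all tested genes were positive and 15.8% negative. The differences were -0.80 for Msmo1, -0.76 for Srebf1, -0.71 for Hsd17b7, -0.66 for Fdps, -0.63 for Cyp51, -0.56 for Nsdhl and -0.50 for Mvd on the log2 scale. The treatment effect differed between 0g and 1g in Pthrp+/+ TOs for 1 gene, Pmvk (1.17), where 2.28% of all tested genes were positive and 0.891% negative. Between the genotypes it differed for 1 gene, Stard4 (-0.72, Pthrp-/- minus Pthrp+/+ TOs), where 1.14% were positive and 1.36% negative.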

How the results depend on the processing

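With 2 arrays per condition, small changes of single genes could not be told from the spread between duplicates, and a condition left with 1 array is assumed to vary like the others. Of all 87 calls of single genes over the 16 contrasts, 20 were lost when only the groups compared were fitted, 13 with cyclic loess, 8 with the authors' normalized values, 4 without a detection filter, 3 with the replicate block, 1 without background correction and 1 with Wright and Simon's model. Under every one of these settings 57 calls held, and 46 of them also held with any 1 array left out. The number of genes called moved by more than 1.5 times as follows. For 0g in Pthrp+/+ TOs it was 3 of a main 8 in untreated cells with only the groups compared, and 3 of a main 5 in treated cells with cyclic loess. For 0g in untreated Pthrp-/- TOs (main 1) it was 4 with the authors' values, 3 with any probe of a gene, 2 without background correction, 2 without a filter and 0 with only the groups compared. For 0g in treated Pthrp-/- TOs (main 1) it was 4 with the authors' values, 2 each with cyclic loess, without background correction, without a filter and with a filter of 8 arrays, and 0 with only the groups compared. With only the groups compared it was also 1 for ablation in untreated TOs at 0g, 0 for treatment in Pthrp+/+ TOs at 0g and 0 for treatment in Pthrp-/- TOs at 0g. For treatment at 1g it was 1 in Pthrp+/+ TOs without background correction and 1 in Pthrp-/- TOs with the authors' values (main 0 in both), and for the treatment effect between genotypes 2 with the authors' values and 2 without background correction. The only-groups fits hold fewer arrays and the cause of the other moves was not tested.

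With the replicate number as a block the counts were, for 0g, 8 and 5 (untreated and treated Pthrp+/+) and 1 and 1 (Pthrp-/-), for ablation 15 and 13 (untreated and treated at 1g), 7 and 6 (at 0g) and 17 (mean of 4 settings), for treatment 2 and 0 (Pthrp+/+ at 0g and 1g) and 1 and 0 (Pthrp-/- at 0g and 1g), and for the differences of effects 7, 1 and 1. The numbers do not pair the arrays.

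Leaving out 1 array at a time gave 3 to 7 and 1 to 2 genes for 0g in untreated and treated Pthrp+/+ TOs, 1 to 4 and 0 to 1 in untreated and treated Pthrp-/- TOs, 12 to 14 and 11 to 13 for ablation at 1g in untreated and treated TOs, 3 to 9 and 3 to 5 at 0g, and 14 to 20 over the mean of 4 settings. For treatment it gave 0 to 4 in Pthrp+/+ TOs at 0g, 0 to 5 in Pthrp-/- TOs at 0g and 0 in both at 1g, and for the differences of effects 7 to 11, 0 to 1 and 0 to 5.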
